A study of Arabidopsis thaliana with 16 samples.

Results

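The WRKY transcription factors are a plant family of DNA-binding proteins, and 40 of its genes were followed here through a count table of Arabidopsis thaliana hypocotyls. The 40 were chosen by locus code, from a list of stress-induced and constitutive genes drawn up with results of these data known, and all 40 were found among the 33296 named genes of the table. The TAIR10.1 reference names 72 WRKY genes in total, and the other 32 of them were used for comparison only. Of the 40 genes, 33 passed the filter on low counts and 7 did not.

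A WRKY protein binds DNA through a domain of a short conserved peptide and a zinc finger, and its usual target is the W-box, a sequence with the core TTGAC. Many members are made within minutes of an attack, a wound or a touch, after kinase cascades have been switched on, and their own promoters often hold W-boxes, so that the factors act on each other. Members also act in heat tolerance, phosphate supply, auxin distribution, pollen, embryo or seed coat. WRKY46, WRKY54 and WRKY70 are also known as partners of the brassinosteroid-response factor BES1 in growth, and the lines studied here differ in a brassinosteroid receptor.

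The study asked how the receptor BRL3 bears on growth in warmth, in hypocotyls of 6-day-old seedlings that had been on plates in long days at 28 °C or at 22 °C throughout. Each of 4 genotypes had 2 libraries at each temperature, 16 libraries in all. The genotypes were brl3-2, in which a T-DNA insertion disrupts BRL3, then pSUC2:BRL3;brl3-2, shortened here to pSUC2-BRL3, which is brl3-2 carrying BRL3-GFP under the SUC2 promoter, then BRL3ox, which carries BRL3-GFP under the general 35S promoter, and Col-0, the wild type of the same accession. The SUC2 promoter acts in phloem companion cells, so pSUC2-BRL3 is meant to supply the receptor in that cell type while other cells still lack it. Libraries of whole hypocotyls cannot show in which cells BRL3 was made. The submitters call the 2 replicates biological, but the labels do not say whether they were sown or harvested apart, so a p-value here reflects only the spread among these samples.

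The libraries held 23021365 to 26563600 counts on named genes at 28 °C and 19013878 to 22791228 at 22 °C. BRL3 itself went with the labels in every library, at 0.531 to 1.04 CPM (counts scaled to library size with TMM factors) in brl3-2, 38.6 to 178 CPM in pSUC2-BRL3, 715 to 2478 CPM in BRL3ox and 10.5 to 28.8 CPM in Col-0. The first principal component, with 53.7% of the variance, separated the temperatures. On the second, with 15.1%, replicate 2 of BRL3ox at 22 °C stood apart at 103, against -50.8 to 31.8 for the other 15 libraries. The replicates of that group differed more than 2-fold at 4523 of the 20505 genes tested (22.1%) and those of pSUC2-BRL3 at 28 °C at 1576 (7.69%), against 623 to 1158 in the other 6 groups. The root hair markers EXPA7 and COBL9 stayed at or below 0.590 CPM. On average over the genotypes, the root markers WOX5 (77 counts in all), AT2G38940 and SCR were called lower in warmth. Their log2 fold changes were -4.40, -0.69 and -0.22, and the root marker SHR was called higher, at 0.47. Among guard cell and stomatal lineage markers, MUTE, MYB60 and SPCH were called lower, at -2.03, -1.35 and -0.90, and FAMA and KAT1 were not called. The apex marker KNAT1, also active in stems, was at 17.7 to 80.9 CPM. It was called higher at 28 °C in each genotype, with a mean log2 fold change of 1.00 (edgeR adjusted p = 6.26e-05). The phloem marker SUC2 lay between 69.6 and 118 CPM in all libraries, while the phloem markers APL and AT5G18600 fell with warmth on average, by 0.86 and 1.70 on the log2 scale (edgeR adjusted p = 8.53e-06 and 3.4e-07). The part of these markers in the members' warmth responses was not tested. In whole hypocotyls, a change in a gene's level cannot be told apart from a change in the number of cells that make it.

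By protein structure the 40 genes fall into 9 of group I, 3 of IIa, 1 of IIb, 7 of IIc, 7 of IId, 4 of IIe and 9 of group III. The signature peptide in the translated RefSeq transcripts was WRKYGQK in all but 1 of them. The 9 group I members held it in 2 copies, and the 9 group III members had a zinc finger of the C2HC type. The codons of the signature are shown for WRKY51, the exception, beside WRKY53 and both copies of WRKY33, since that peptide is what makes a gene a member. They were read from RefSeq TAIR10.1 in the coding direction, and capitals mark the codon of the sixth residue, where WRKY51 has a lysine and the others a glutamine.
WRKY51: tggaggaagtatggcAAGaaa
WRKY53: tggagaaaatatggtCAAaaa
WRKY33 first copy: tggagaaagtacggaCAAaaa
WRKY33 second copy: tggagaaaatacggcCAGaaa

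The 250 bases before the annotated gene start are shown for 4 stress-induced members with large differences between libraries and for WRKY25, whose level followed temperature. They were read in the direction of transcription from RefSeq TAIR10.1, and capitals mark W-boxes, searched as TTGACC and TTGACT on both strands, which share the core TTGAC and do not overlap each other here. WRKY33 holds W-boxes that begin 32 and 96 bases before the start, WRKY53 at 71 and 219, WRKY30 at 61, 69 and 124, and WRKY25 at 8. WRKY40 holds the core alone in 1 place and no full W-box.
WRKY33, chr2:16107985-16108234, plus strand: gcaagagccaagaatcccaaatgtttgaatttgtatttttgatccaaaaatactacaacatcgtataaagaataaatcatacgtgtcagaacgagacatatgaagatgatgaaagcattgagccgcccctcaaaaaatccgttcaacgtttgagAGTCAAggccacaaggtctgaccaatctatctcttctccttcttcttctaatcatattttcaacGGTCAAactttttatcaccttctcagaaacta
WRKY53, chr4:12393983-12394232, minus strand: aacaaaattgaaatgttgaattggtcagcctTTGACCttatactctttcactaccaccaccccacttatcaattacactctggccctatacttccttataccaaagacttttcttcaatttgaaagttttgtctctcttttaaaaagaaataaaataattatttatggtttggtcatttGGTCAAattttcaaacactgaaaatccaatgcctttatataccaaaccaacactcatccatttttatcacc
WRKY30, chr5:8154711-8154960, minus strand: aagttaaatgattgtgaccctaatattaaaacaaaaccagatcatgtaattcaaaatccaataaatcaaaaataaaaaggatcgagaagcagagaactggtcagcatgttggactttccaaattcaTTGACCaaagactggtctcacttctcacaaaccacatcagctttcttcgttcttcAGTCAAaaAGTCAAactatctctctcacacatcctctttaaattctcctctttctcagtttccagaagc
WRKY40, chr1:30383311-30383560, plus strand: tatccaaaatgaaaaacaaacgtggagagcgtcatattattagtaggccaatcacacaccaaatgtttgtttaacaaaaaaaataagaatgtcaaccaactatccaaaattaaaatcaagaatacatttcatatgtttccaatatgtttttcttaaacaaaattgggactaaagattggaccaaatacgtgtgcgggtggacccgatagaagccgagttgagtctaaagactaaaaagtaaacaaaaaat
WRKY25, chr2:12905339-12905588, minus strand: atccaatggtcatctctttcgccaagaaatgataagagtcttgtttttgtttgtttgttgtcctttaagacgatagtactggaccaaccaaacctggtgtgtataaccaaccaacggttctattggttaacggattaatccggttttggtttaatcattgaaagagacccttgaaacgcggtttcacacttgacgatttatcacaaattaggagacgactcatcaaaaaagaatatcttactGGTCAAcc

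Across the 40 genes, 16 windows (40%) held a W-box, against 28.4% of the windows of 27443 protein-coding genes and 9 of 32 (28.1%) for the other WRKY genes. Among the 26 members known as stress-induced, 14 windows (53.8%) held one and 8 (30.8%) held 2 or more, against 6.18% with 2 or more over all protein-coding genes. Among the 14 other members, 2 windows (14.3%) held one. These are counts of letters in a fixed window and say nothing of binding.

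The summed level of the stress-induced members differed more widely between libraries than that of the others. Summed over the 26 stress-induced members, the level was 1353 and 1882 CPM in brl3-2 at 28 °C and 937.7 and 876.9 CPM in brl3-2 at 22 °C. It was 310.5 and 386.9 CPM in pSUC2-BRL3 at 28 °C, 186.6 and 274.4 at 22 °C, 357.2 and 675.8 in BRL3ox at 28 °C and 272.3 and 860.3 at 22 °C. In Col-0 it was 201.5 and 329.9 CPM at 28 °C and 441.5 and 178 CPM at 22 °C. All 4 brl3-2 libraries lay above the other 12, of which replicate 2 of BRL3ox at 22 °C came closest. The largest parts of the sum in brl3-2 came from WRKY33 and WRKY40. Some stress-induced members, such as WRKY8, WRKY28, WRKY60 and WRKY75, were not highest in brl3-2. The 14 other members summed to 210.1 to 310.1 CPM in every library.

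The summed level of 14 genes that rise within minutes of wounding or touch went with that of the stress-induced members between replicates, but not in the same way between groups. It was 2101 and 3013 CPM in brl3-2 at 28 °C, 2596 and 2155 in brl3-2 at 22 °C, 282.8 and 910.3 in pSUC2-BRL3 at 28 °C and 291.9 and 1031 in pSUC2-BRL3 at 22 °C. In BRL3ox it was 470.7 and 1196 CPM at 28 °C and 1301 and 3027 CPM at 22 °C, and in Col-0 it was 415.6 and 1121 CPM at 28 °C and 1362 and 500.8 CPM at 22 °C. In each of the 8 groups, the replicate with the higher wound and touch sum also had the higher sum of stress-induced WRKY genes. In brl3-2 the wound and touch sums overlapped between the temperatures while the WRKY sums did not. Replicate 2 of BRL3ox at 22 °C had the highest wound and touch sum, 3027 CPM, just above 3013 CPM in replicate 2 of brl3-2 at 28 °C. Its WRKY sum lay below all 4 brl3-2 libraries. That top rank leans on 1 gene, TCH4, with 17497 counts in this BRL3ox library, where SZF1 was next with 7368. The part of handling at harvest in the levels below was not tested.

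**Figure D1:**
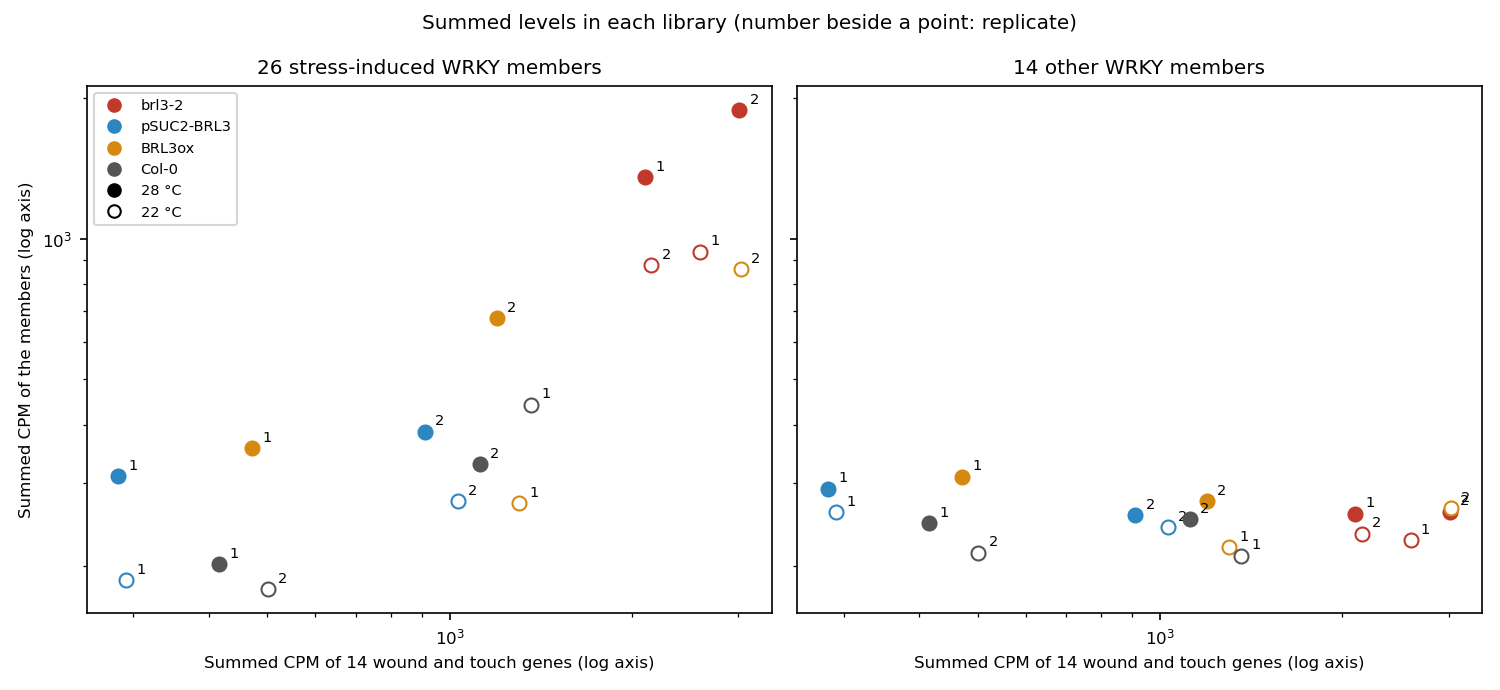
Summed level (CPM) per library of the 26 stress-induced and the 14 other WRKY members, and of 14 wound and touch genes, by group. The brl3-2 libraries lie highest for the sum of the stress-induced members, at 876.9 to 1882 CPM, with the largest parts from WRKY33 and WRKY40. The other members stay between 210.1 and 310.1 CPM.

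WRKY33 (AT2G38470), which is phosphorylated by the kinases MPK3 and MPK6 and drives camalexin production against fungi, lies at chr2:16108235-16110766 on the plus strand of TAIR10.1 in 5 exons. It stood at 535 and 819 CPM in brl3-2 at 28 °C and at 285 and 275 CPM in brl3-2 at 22 °C. The values were 41.5 and 85.8 CPM in pSUC2-BRL3 at 28 °C, 9.90 and 26.7 CPM at 22 °C, 50.8 and 219.9 CPM in BRL3ox at 28 °C and 36.7 and 265 CPM at 22 °C. Col-0 had 30.9 and 61.1 CPM at 28 °C and 117 and 18.5 CPM at 22 °C. The brl3-2 libraries were above all others, and within BRL3ox and Col-0 at 22 °C the replicates lay 7.203-fold and 6.32-fold apart. Per kilobase of exon, WRKY33 was the most abundant member in brl3-2 at 28 °C, at 333.9 CPM per kb, and in Col-0 at 28 °C it ranked 3, at 22.7 CPM per kb.

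WRKY40 (AT1G80840), WRKY18 (AT4G31800) and WRKY60 (AT2G25000) are the IIa members, which bind each other and act mostly as repressors in defence and abscisic acid signalling. WRKY40 was at 249 and 328 CPM in brl3-2 at 28 °C and at 226 and 183.5 CPM in brl3-2 at 22 °C. It had 6.00 and 44.1 CPM in pSUC2-BRL3 at 28 °C, 3.52 and 36.3 at 22 °C, 6.42 and 46.1 in BRL3ox at 28 °C and 42.2 and 191 at 22 °C, against 7.65 and 38.8 CPM in Col-0 at 28 °C and 96.6 and 12.6 CPM at 22 °C. With a prior count of 2, which shrinks folds at low counts, replicates of the genotypes other than brl3-2 lay 4.52-fold to 10.1-fold apart. Those of brl3-2 lay no more than 1.315-fold apart. Outside brl3-2, replicate 2 of BRL3ox at 22 °C alone reached the brl3-2 range. WRKY18 was at 43.4 and 82.4 CPM in brl3-2 at 28 °C and 80.2 and 78.1 CPM at 22 °C. Its level was 9.74 and 10.4 CPM in pSUC2-BRL3 at 28 °C, 6.43 and 9.72 at 22 °C, 12.2 and 39.8 in BRL3ox at 28 °C and 22.5 and 17.1 at 22 °C, against 7.06 and 14.3 CPM in Col-0 at 28 °C and 34.4 and 15.5 CPM at 22 °C. No library outside brl3-2 reached the lowest of brl3-2.

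WRKY53 (AT4G23810), a group III regulator of leaf senescence, had the widest range of the members with at least 10 counts in every library, 153-fold between its lowest and highest. It was at 94.2 and 112 CPM in brl3-2 at 28 °C and at 21.6 and 21.7 CPM in brl3-2 at 22 °C. It had 4.56 and 7.87 CPM in pSUC2-BRL3 at 28 °C, 0.727 and 1.45 at 22 °C, 5.15 and 26.6 in BRL3ox at 28 °C and 2.28 and 15.2 at 22 °C, against 2.69 and 7.28 CPM in Col-0 at 28 °C and 7.22 and 2.33 CPM at 22 °C. Replicate 2 of BRL3ox at 28 °C was above both brl3-2 libraries at 22 °C, and the other libraries outside brl3-2 were below them. WRKY46 (AT2G46400) was also highest in brl3-2, with 26.6 and 45.7 CPM in brl3-2 at 28 °C, 19.9 and 17.2 CPM in brl3-2 at 22 °C and 0.0559 to 11.8 CPM elsewhere. WRKY30 (AT5G24110), an early gene of oxidative stress, was at 7.198 and 18.96 CPM in brl3-2 at 28 °C, at 1.42 and 1.07 CPM in brl3-2 at 22 °C and at 0 to 1.93 CPM elsewhere.

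WRKY70 (AT3G56400), at the crossing of salicylic acid and jasmonate defence, was lower on average at 28 °C than at 22 °C in each genotype. It was at 5.97 and 7.79 CPM in brl3-2 at 28 °C and 12.98 and 16.1 CPM at 22 °C, and at 2.30 and 5.82 CPM in pSUC2-BRL3 at 28 °C and 3.30 and 10.3 CPM at 22 °C. BRL3ox had 2.54 and 5.95 CPM at 28 °C and 11.3 and 25.97 CPM at 22 °C, and Col-0 had 1.67 and 4.27 CPM at 28 °C and 19.5 and 7.31 CPM at 22 °C. The temperatures overlapped in pSUC2-BRL3 alone. WRKY75 (AT5G13080), which acts in phosphate starvation and senescence, stayed between 0.817 and 4.42 CPM in the 16 libraries, with no group apart from the rest.

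**Figure D2:**
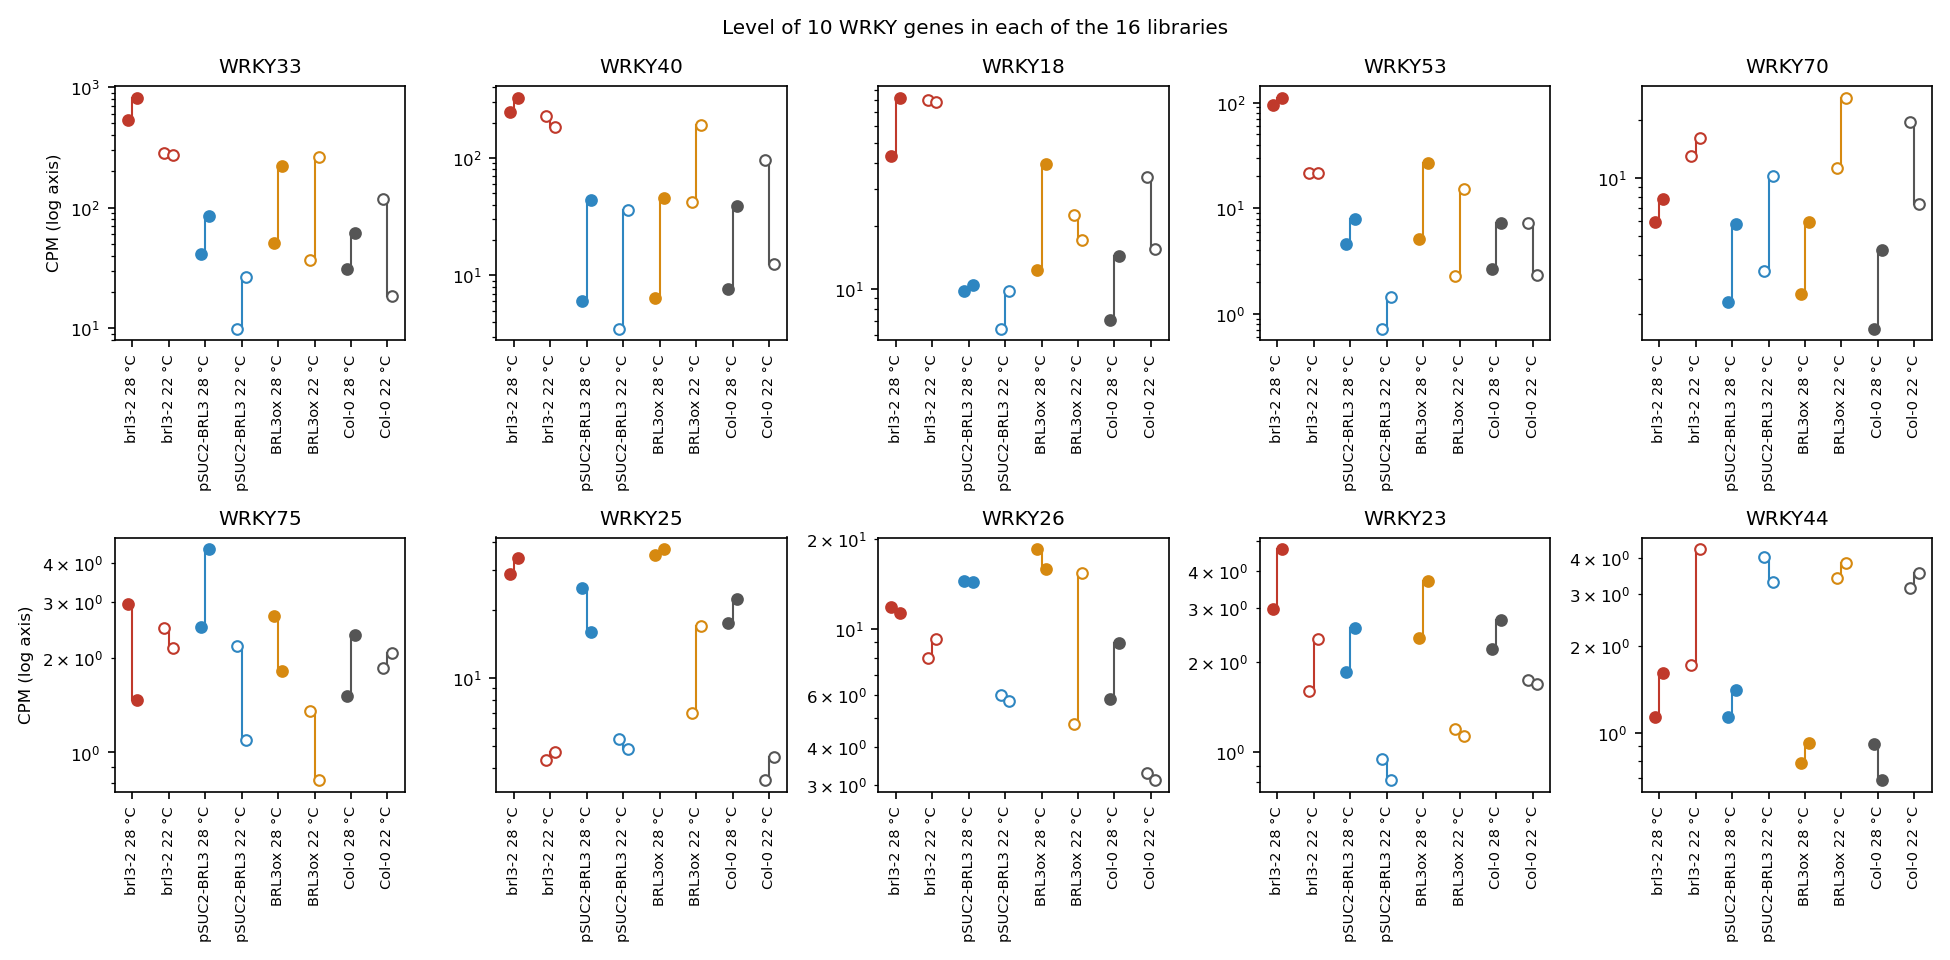
Level (CPM, log axis) of 10 WRKY genes in each of the 16 libraries, 1 point per library, grouped by genotype and temperature. WRKY33, WRKY40 and WRKY53 are highest in brl3-2 and spread widely elsewhere, while WRKY25 is high at 28 °C and WRKY44 low at 28 °C in every genotype.

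WRKY25 (AT2G30250) and WRKY26 (AT5G07100) are group I relatives of WRKY33 that add to heat tolerance. WRKY25, at chr2:12903208-12905338 on the minus strand, was at 28.8 and 34.0 CPM in brl3-2 at 28 °C and 4.31 and 4.69 CPM at 22 °C, and at 24.9 and 16.0 CPM in pSUC2-BRL3 at 28 °C and 5.37 and 4.86 CPM at 22 °C. BRL3ox had 35.1 and 37.2 CPM at 28 °C and 6.95 and 17.0 CPM at 22 °C, and Col-0 had 17.5 and 22.3 CPM at 28 °C and 3.52 and 4.46 CPM at 22 °C. In each genotype both warm libraries were above both cool ones. WRKY26 was at 11.8 and 11.3 CPM in brl3-2 at 28 °C and 7.97 and 9.21 CPM at 22 °C, and at 14.4 and 14.3 CPM in pSUC2-BRL3 at 28 °C and 5.98 and 5.73 CPM at 22 °C. BRL3ox had 18.5 and 15.9 CPM at 28 °C and 4.77 and 15.3 CPM at 22 °C, and Col-0 had 5.81 and 8.98 CPM at 28 °C and 3.28 and 3.11 CPM at 22 °C. Its warm libraries were above its cool ones too, by little in BRL3ox, where replicate 2 at 22 °C reached 15.3 CPM.

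WRKY44 (AT2G37260), also called TTG2, works in trichomes, seed coat pigment and mucilage, and lies at chr2:15644811-15647076 on the plus strand. It was at 1.14 and 1.61 CPM in brl3-2 at 28 °C and 1.71 and 4.30 CPM at 22 °C, and at 1.13 and 1.41 CPM in pSUC2-BRL3 at 28 °C and 4.03 and 3.30 CPM at 22 °C. BRL3ox had 0.789 and 0.921 CPM at 28 °C and 3.42 and 3.83 CPM at 22 °C, and Col-0 had 0.919 and 0.688 CPM at 28 °C and 3.17 and 3.56 CPM at 22 °C. The warm libraries were below the cool ones in all 4 genotypes, by a narrow gap in brl3-2. WRKY23 (AT2G47260), an auxin-induced factor of auxin transport, was at 2.98 and 4.71 CPM in brl3-2 at 28 °C and 1.59 and 2.37 CPM at 22 °C, and at 1.85 and 2.58 CPM in pSUC2-BRL3 at 28 °C and 0.951 and 0.810 CPM at 22 °C. BRL3ox had 2.40 and 3.69 CPM at 28 °C and 1.19 and 1.13 CPM at 22 °C, and Col-0 had 2.20 and 2.75 CPM at 28 °C and 1.73 and 1.68 CPM at 22 °C. Here the warm libraries were the higher in every genotype.

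The remaining members differ mainly in how steady they are. WRKY20 and WRKY1 varied 1.505-fold and 1.55-fold between their lowest and highest libraries, WRKY7 1.80-fold and WRKY21 1.92-fold, while WRKY40 varied 93.0-fold and WRKY33 82.8-fold. Of the 20 stress-induced members that passed the filter, 11 lay more than 2-fold apart between replicates of BRL3ox at 22 °C, 8 in BRL3ox at 28 °C and 7 in Col-0 at 22 °C, against 1 in brl3-2 at 28 °C and 0 in brl3-2 at 22 °C. Of the 13 other members that passed, WRKY44 in brl3-2 at 22 °C was the only such case over the 8 groups. Among the wound and touch genes, 9 to 11 of 14 lay more than 2-fold apart in each group other than brl3-2, against 0 in brl3-2 at either temperature.

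The 7 genes that did not pass the filter were WRKY38 and WRKY62, repressors of basal defence with 12 and 8 counts over the 16 libraries, WRKY41, a factor of seed dormancy with 17, WRKY51 with 29, WRKY54, the closest relative of WRKY70, with 68, WRKY55 with 15 and WRKY74 with 107. No library held more than 11 counts of any of them. DESeq2, with its own filter, called WRKY74 in the average warmth response. WRKY8 and WRKY30 passed with 6 and 10 of 16 libraries above the filter's 0.437 CPM and WRKY46 with 15, and such genes can pass through the group in which they are high. The other 30 were above it in all 16.

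**Figure D3:**
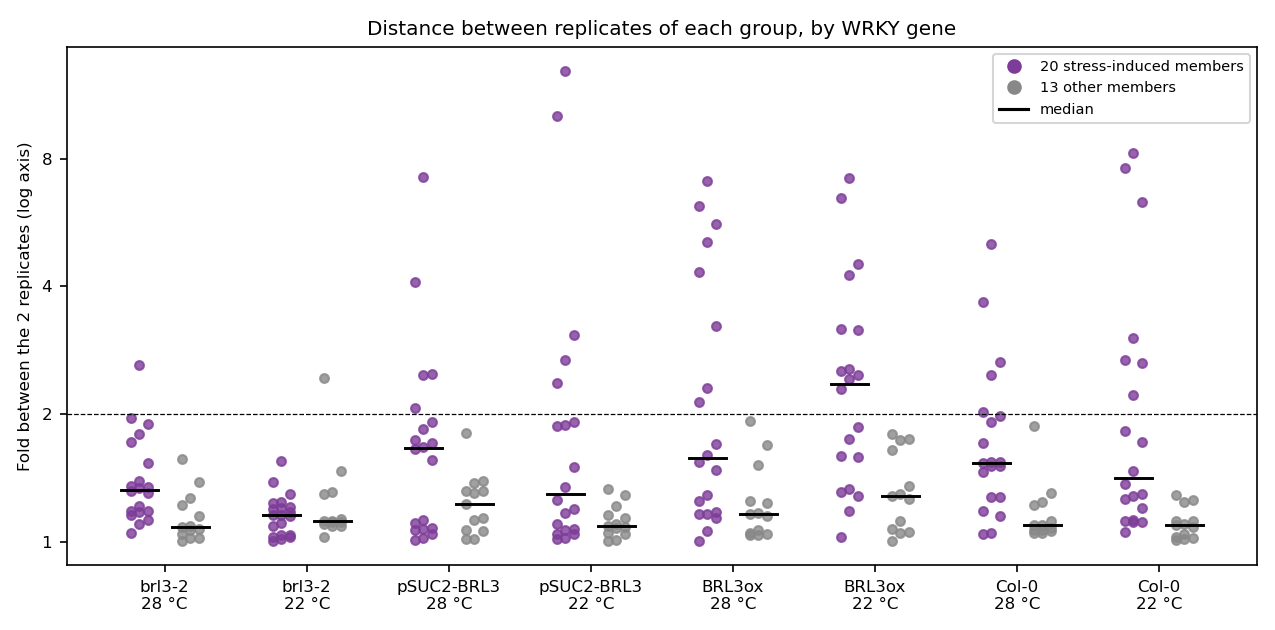
Fold difference between the 2 replicates of each group, 1 point per gene, for the 20 stress-induced and 13 other WRKY members that passed the filter. In BRL3ox at 22 °C 11 stress-induced members exceed 2-fold, against 0 in brl3-2 at 22 °C.

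Warmth raised and lowered individual members. Differences were tested with edgeR's quasi-likelihood test in 1 fit of all 16 libraries, with p-values adjusted by Benjamini and Hochberg over the 20505 genes tested, and calls were made below 0.05. In Col-0, 5 members rose and 3 fell, where 21.7% of all genes tested rose and 23.3% fell, so the members were not called more often than genes at large. WRKY25 averaged 19.9 ± 3.43 CPM at 28 °C and 3.99 ± 0.666 CPM at 22 °C (SD, n = 2 each), a log2 fold change of 2.32 (SE 0.36, edgeR adjusted p = 0.000501). WRKY3 (AT2G03340), which with WRKY4 resists necrotrophic fungi, averaged 35.6 ± 1.84 CPM at 28 °C and 14.7 ± 0.437 CPM at 22 °C (log2 fold change 1.27, SE 0.22, edgeR adjusted p = 0.00105). WRKY26 rose by 1.21 (SE 0.42, edgeR adjusted p = 0.0344) and WRKY21, a calmodulin-binding member of IId, by 0.82 (SE 0.23, edgeR adjusted p = 0.0141).

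WRKY8, known from salt stress and viral infection, rose in Col-0 on few counts, 41 at 28 °C against 5 at 22 °C (log2 fold change 2.15, SE 0.59, edgeR adjusted p = 0.0125), and lost its call without replicate 1 at 22 °C. WRKY44 fell to 0.804 ± 0.163 CPM at 28 °C, against 3.36 ± 0.279 CPM at 22 °C, with a log2 fold change of -2.05 (SE 0.39, edgeR adjusted p = 0.00167). WRKY70 fell by 2.18 on the log2 scale (SE 0.73, edgeR adjusted p = 0.0295), but replicates lay 2.64-fold apart at 22 °C, and the call was lost without replicate 1 of either temperature, with log2 fold changes of -2.99 to -1.30 over the alternatives. WRKY1, a long-known zinc-dependent member, fell by 0.42 (SE 0.14, edgeR adjusted p = 0.0286), a call lost without any 1 of the 4 libraries. The calls of WRKY26 and WRKY21 were each lost in 3 of the 8 alternatives. The fast-induced genes were not called, with log2 fold changes of -0.56 for WRKY33, -1.24 for WRKY40, -1.22 for WRKY18 and 0.05 for WRKY53 (edgeR adjusted p = 0.664, 0.473, 0.0892 and 0.972). The 8 calls in Col-0 became 4 without replicate 1 at 22 °C. They became 5 where its replicate 2, or replicate 1 of the warm libraries, was left out.

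In brl3-2, 10 members rose in warmth and 3 fell, beside 25.8% and 23.3% of all genes. WRKY30 averaged 13.1 ± 8.32 CPM at 28 °C and 1.25 ± 0.242 CPM at 22 °C (SD, n = 2 each), with a log2 fold change of 3.39 (SE 0.76, edgeR adjusted p = 0.00344). WRKY25 rose by 2.80 (SE 0.36, edgeR adjusted p = 0.000104) and WRKY3 by 1.96 (SE 0.23, edgeR adjusted p = 5.96e-05). WRKY53 averaged 102.9 ± 12.3 CPM at 28 °C and 21.7 ± 0.0731 CPM at 22 °C (log2 fold change 2.25, SE 0.84, edgeR adjusted p = 0.0432), a call lost without any 1 of the 4 libraries. The others that rose were WRKY6, a factor of senescence and phosphate supply, WRKY11, WRKY48, WRKY4, WRKY2 and WRKY23, by 0.56 to 1.47 on the log2 scale. WRKY39 (AT3G04670), a calmodulin-binding member known from heat stress, fell to 19.7 ± 1.13 CPM at 28 °C, against 33.6 ± 2.93 CPM at 22 °C (log2 fold change -0.77, SE 0.11, edgeR adjusted p = 0.000185). WRKY1 fell by 0.44, and WRKY44 by 1.14 (SE 0.37, edgeR adjusted p = 0.0258). The WRKY44 call was lost when replicate 1 at 28 °C, or replicate 2 at 22 °C, was left out, and the WRKY1 call without any 1 of the 4. WRKY33, WRKY40 and WRKY18 were not called, at 1.27, 0.49 and -0.33 (edgeR adjusted p = 0.305, 0.774 and 0.626). The 13 calls in brl3-2 became 8 without replicate 1 at 28 °C and 6 without any 1 of the other libraries.

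In pSUC2-BRL3, 10 members rose and 5 fell, beside 19.6% and 19.5% of all genes. WRKY48, a repressor of basal defence, averaged 8.04 ± 2.90 CPM at 28 °C and 1.39 ± 0.0733 CPM at 22 °C (SD, n = 2 each), with a log2 fold change of 2.52 (SE 0.55, edgeR adjusted p = 0.00433). WRKY25 rose by 2.00 (SE 0.35, edgeR adjusted p = 0.00132), WRKY3 by 1.55 (SE 0.22, edgeR adjusted p = 0.000445) and WRKY23 by 1.33 (SE 0.35, edgeR adjusted p = 0.0124). The others that rose were WRKY6, WRKY11, WRKY17, WRKY26, WRKY29 and WRKY65, by 0.78 to 1.30. WRKY28, an activator of salicylic acid synthesis, fell to 1.59 ± 0.0758 CPM at 28 °C, against 3.76 ± 0.169 CPM at 22 °C (log2 fold change -1.23, edgeR adjusted p = 0.0127). WRKY44 fell by 1.53 (SE 0.37, edgeR adjusted p = 0.00794), a call lost without replicate 1 at 28 °C, and WRKY20, WRKY1 and WRKY39 fell by 0.48, 0.47 and 0.35. The WRKY1 call was lost without any 1 of the 4 libraries. Those of WRKY23 and WRKY28 were lost in 3 of 10 alternatives each, and that of WRKY20 in 2. The count of members called was 5 without replicate 1 at 28 °C, and it was 7 without replicate 2 at 22 °C.

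In BRL3ox, 13 members rose and 4 fell, beside 18.3% and 19.3% of all genes. WRKY60, the IIa relative of WRKY18 and WRKY40, averaged 20.3 ± 6.64 CPM at 28 °C and 1.79 ± 1.65 CPM at 22 °C (SD, n = 2 each), with a log2 fold change of 3.46 (SE 0.50, edgeR adjusted p = 0.000444). Its libraries held 15.6 and 24.97 CPM at 28 °C and 2.96 and 0.629 CPM at 22 °C, so replicate 2 at 22 °C was the lowest of the 16. WRKY8 rose by 2.55 (SE 0.48, edgeR adjusted p = 0.00207), on 116 counts at 28 °C against 11 at 22 °C. WRKY48 rose by 1.76 and WRKY25 by 1.602 (edgeR adjusted p = 0.0155 and 0.00358), and WRKY6, WRKY11, WRKY17, WRKY29, WRKY3, WRKY7, WRKY45, WRKY65 and WRKY23 rose by 0.62 to 1.39. Over the alternatives the change ran from 1.11 to 2.29 for WRKY48, whose call was lost in 2 of 10 alternatives, without the warm replicate 2 and without the cool replicate 1, and from 1.09 to 2.38 for WRKY25, whose call was kept. WRKY44 fell by 2.07 (SE 0.38, edgeR adjusted p = 0.00184) and WRKY28 by 0.97 (edgeR adjusted p = 0.0351), a call lost in 3 of 10 alternatives. WRKY70 and WRKY22, a factor downstream of bacterial flagellin, fell by 2.12 and 1.46 (edgeR adjusted p = 0.0347 and 0.036). Both of these calls were lost without replicate 2 at 22 °C, the library that stood apart, and also without either library at 28 °C. The count of members called was 10 or 11 without 1 of the warm libraries and 21 without replicate 2 at 22 °C.

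Averaged over the 4 genotypes, 17 members rose and 7 fell, beside 35.9% and 33.5% of all genes. WRKY25 rose by 2.18 on the log2 scale (SE 0.18, edgeR adjusted p = 8.05e-07), WRKY30 by 2.29 (SE 0.51, edgeR adjusted p = 0.00185), WRKY48 by 1.70 (SE 0.25, edgeR adjusted p = 9.32e-05) and WRKY3 by 1.42 (SE 0.11, edgeR adjusted p = 6.9e-07). WRKY44 fell by 1.70 (SE 0.19, edgeR adjusted p = 1.03e-05), WRKY70 by 1.53 (SE 0.35, edgeR adjusted p = 0.00227) and WRKY22 by 0.83 (SE 0.24, edgeR adjusted p = 0.00961). The other members that rose were WRKY6, WRKY8, WRKY11, WRKY17, WRKY26, WRKY29, WRKY53, WRKY60, WRKY4, WRKY65, WRKY2, WRKY23 and WRKY21, and the others that fell were WRKY28, WRKY39, WRKY1 and WRKY20. Within genotypes, WRKY30 and WRKY53 were called in brl3-2 alone of the 4. In Col-0 WRKY30 stood at 0.625 CPM per kb of exon at 28 °C and 0.523 at 22 °C, and WRKY53 at 3.293 and 3.155. The pSUC2-BRL3 libraries at 22 °C held 0 and 2 counts of WRKY30. The median log2 fold change of the 33 tested was 0.48, against 0.0295 over all genes tested. Among the 9 group I members 5 rose and 3 fell.

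**Figure D4:**
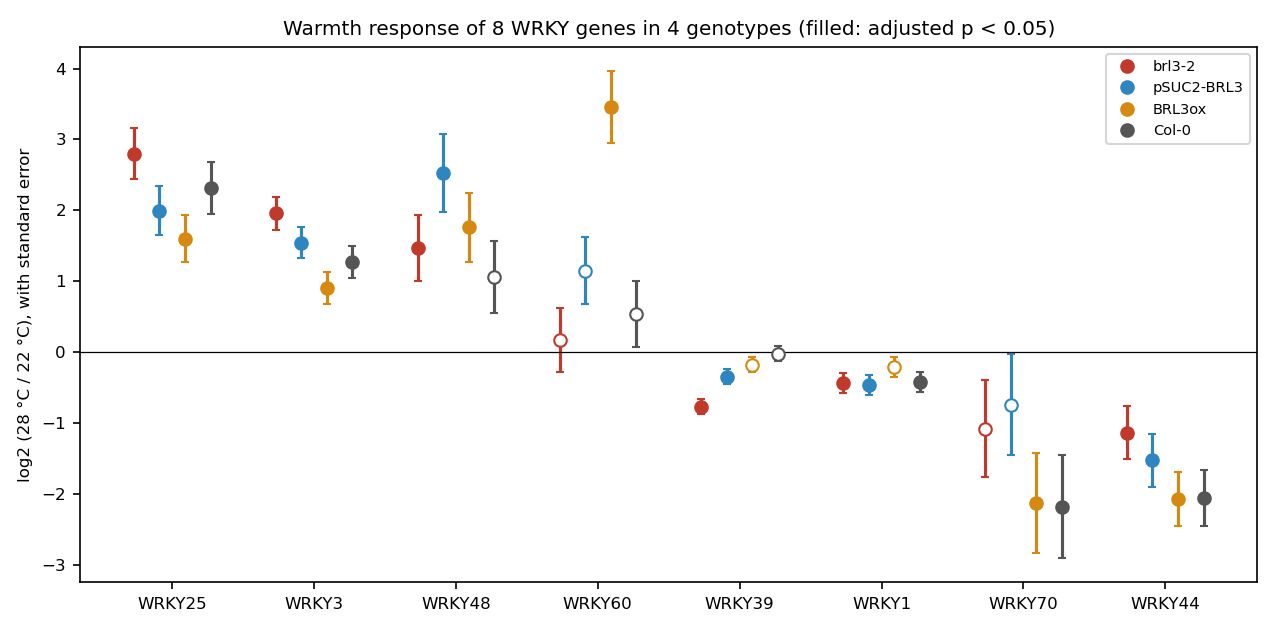
Log2 fold change at 28 °C over 22 °C, with its standard error, of 8 WRKY genes in each genotype. WRKY25 lies between 1.602 and 2.80 and WRKY44 between -2.07 and -1.14 in the 4 genotypes, while WRKY60 in BRL3ox, at 3.46, stands above its other values.

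Loss of BRL3 was compared with the wild type at each temperature, and these comparisons share their Col-0 libraries with those of the other lines. At 28 °C 7 members were higher in brl3-2 than in Col-0 and 0 lower, where 2.19% of all genes were higher and 1.43% lower. With unadjusted p below 0.05, 15 of the 33 tested were higher and 1 lower, beside 16.8% of all genes in both directions together. DESeq2 called 11 higher and 0 lower. WRKY53 averaged 102.9 ± 12.3 CPM in brl3-2 and 4.99 ± 3.24 CPM in Col-0 (SD, n = 2 each), a log2 fold change of 4.37 (SE 0.93, edgeR adjusted p = 0.0273). WRKY30 averaged 13.1 ± 8.32 CPM in brl3-2 and 0.806 ± 0.397 CPM in Col-0 (log2 fold change 4.02, SE 0.77, edgeR adjusted p = 0.0177). WRKY18 averaged 62.9 ± 27.6 CPM in brl3-2 and 10.7 ± 5.15 CPM in Col-0 (log2 fold change 2.56, SE 0.56, edgeR adjusted p = 0.0316). WRKY11 and WRKY17, related repressors of basal resistance, were higher by 1.78 and 1.20, WRKY15, a factor of mitochondrial stress signalling, by 1.50 and WRKY6 by 0.89 (edgeR adjusted p = 0.0222, 0.0308, 0.0355 and 0.0193).

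All 7 belong to the stress-induced members, of which 20 passed the filter. The median log2 fold change of those 20 was 1.22, against 0.00155 over all genes tested, and that of the 13 others was 0.0369. WRKY33, at 677.2 ± 201.2 CPM in brl3-2 and 46.0 ± 21.4 CPM in Col-0, was not called (log2 fold change 3.88, SE 1.09, edgeR adjusted p = 0.0806), nor was WRKY40 at 288.5 ± 55.6 and 23.2 ± 22.0 CPM (3.64, SE 1.45, edgeR adjusted p = 0.221). These calls rest on few libraries: without replicate 2 of brl3-2 or replicate 1 of Col-0 the count was 0, and it was at most 3 without any 1 of the 4. The wound and touch genes were 14 of 14 above 0 in this comparison with a median of 2.1, and TCH3 was called at 282 ± 105.8 CPM in brl3-2 and 55.2 ± 13.1 CPM in Col-0 (log2 fold change 2.35, edgeR adjusted p = 0.0434). Their part in the WRKY differences was not tested.

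At 22 °C the members leaned the same way in brl3-2 but none passed the test. By edgeR 0 were higher and 0 lower, where 0.629% of all genes were higher and 1.61% lower. At unadjusted p below 0.05, 10 of the 33 tested were higher and 0 lower, beside 18.6% of all genes in both directions together. DESeq2 called 7 higher and 0 lower, namely WRKY7, WRKY11, WRKY15, WRKY18, WRKY22, WRKY26 and WRKY39. The fitted log2 fold change was above 0 for 20 of 20 tested stress-induced members, with a median of 1.18, against 47.1% of all genes and a median of -0.0278. WRKY33 averaged 280.2 ± 6.69 CPM in brl3-2 and 67.9 ± 69.9 CPM in Col-0 (SD, n = 2 each), with a log2 fold change of 2.04 (edgeR adjusted p = 0.308). WRKY18 averaged 79.1 ± 1.48 CPM in brl3-2 and 24.9 ± 13.4 CPM in Col-0 (1.66, edgeR adjusted p = 0.131), and WRKY53 21.7 and 4.78 CPM (2.17, edgeR adjusted p = 0.221). The spread lay in Col-0, whose replicate 1 was the higher for each of these. The 14 wound and touch genes were all above 0 here too, with a median of 1.41. The 7 root markers, mostly SCR and SHR, summed to 49.2 to 69.2 CPM in the other 14 libraries and to 108.1 and 95.5 CPM in Col-0 at 22 °C, and their part in these comparisons was not tested.

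In the phloem line pSUC2-BRL3, the summed level of the stress-induced members was lower than in brl3-2 in every library, though few members passed the test. At 22 °C 0 members were higher in pSUC2-BRL3 than in brl3-2 and 1 lower, where 0.151% of all genes were higher and 0.156% lower. At unadjusted p below 0.05, 1 of the 33 tested was higher and 12 were lower, beside 18.7% of all genes in both directions together. DESeq2 called 0 higher and 7 lower. WRKY18, the 1 called, averaged 8.07 ± 2.32 CPM in pSUC2-BRL3 and 79.1 ± 1.48 CPM in brl3-2 (SD, n = 2 each), with a log2 fold change of -3.29 (SE 0.59, edgeR adjusted p = 0.0477), and its call was lost without any 1 of the 4 libraries. WRKY33 stood at 18.3 ± 11.9 CPM in pSUC2-BRL3 and 280.2 ± 6.69 CPM in brl3-2 (-3.94, edgeR adjusted p = 0.114), and WRKY53 at 1.09 and 21.7 CPM (-4.32, edgeR adjusted p = 0.0845).

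At 28 °C 1 member was higher in pSUC2-BRL3 than in brl3-2 and 2 were lower, where 0.332% of all genes were higher and 1.28% lower. WRKY39 averaged 29.3 ± 1.33 CPM in pSUC2-BRL3 and 19.7 ± 1.13 CPM in brl3-2 (SD, n = 2 each), with a log2 fold change of 0.57 (edgeR adjusted p = 0.0283). WRKY30 averaged 0.749 ± 0.349 CPM in pSUC2-BRL3 and 13.1 ± 8.32 CPM in brl3-2 (-4.12, edgeR adjusted p = 0.0281), and WRKY18 averaged 10.1 ± 0.494 CPM in pSUC2-BRL3 and 62.9 ± 27.6 CPM in brl3-2 (-2.64, edgeR adjusted p = 0.045). WRKY53 was at -4.05 and WRKY33 at -3.41, neither called by edgeR (adjusted p = 0.0529 and 0.146). Unadjusted p was below 0.05 for 2 of the 33 tested members higher and 13 lower, beside 16.2% of all genes in both directions together. DESeq2 called 1 higher and 6 lower, WRKY33 and WRKY53 among them. The count was 0 or 1 without any 1 of the 4 libraries, and 7 without both pSUC2-BRL3 replicate 1 at 28 °C and BRL3ox replicate 2 at 22 °C. Beside these, the 14 wound and touch genes were all below 0 at both temperatures, with medians of -1.81 at 28 °C and -2.2 at 22 °C.

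Set against Col-0, few members were called in the phloem line. At 28 °C 0 were higher and 0 lower by edgeR, where 0.229% of all genes were higher and 0.629% lower. At unadjusted p below 0.05, 6 of the 33 tested were higher and 0 lower, beside 12.7% of all genes in both directions together. DESeq2 called WRKY29 and WRKY6 higher. At 22 °C 2 members were higher in pSUC2-BRL3 than in Col-0 and 0 lower, where 5.05% of all genes were higher and 5.56% lower. At unadjusted p below 0.05, 5 of the 33 tested were higher and 5 lower, beside 28.5% of all genes in both directions together. DESeq2 called 2 higher and 2 lower. WRKY39 averaged 37.2 ± 0.118 CPM in pSUC2-BRL3 and 25.2 ± 1.65 CPM in Col-0 (SD, n = 2 each), with a log2 fold change of 0.56 (edgeR adjusted p = 0.0114). WRKY2, which acts in the zygote and in pollen, averaged 10.6 ± 0.593 CPM in pSUC2-BRL3 and 6.07 ± 0.476 CPM in Col-0 (0.80, edgeR adjusted p = 0.0471). The count was 0 or 1 without any 1 of the 4 libraries.

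In BRL3ox, 10 members were called against Col-0 at 22 °C and 0 at 28 °C. At 28 °C 0 were higher and 0 lower by edgeR, where 0.829% of all genes were higher and 1.24% lower. At unadjusted p below 0.05, 13 of the 33 tested were higher and 0 lower, beside 16.5% of all genes in both directions together. DESeq2 called WRKY11, WRKY2 and WRKY60 higher. At 22 °C 8 were higher in BRL3ox and 2 lower, where 15.6% of all genes were higher and 14.7% lower. WRKY26 averaged 10.1 ± 7.47 CPM in BRL3ox and 3.20 ± 0.126 CPM in Col-0 (SD, n = 2 each), with a log2 fold change of 1.64 (edgeR adjusted p = 0.0163). WRKY25, WRKY15 and WRKY28 were higher by 1.58, 1.26 and 1.01 (edgeR adjusted p = 0.011, 0.0197 and 0.0425), as were WRKY3, WRKY4, WRKY39 and WRKY69 by 0.48 to 0.73. WRKY45, an activator of phosphate uptake, averaged 2.82 ± 0.101 CPM in BRL3ox and 6.46 ± 0.995 CPM in Col-0 (-1.20, edgeR adjusted p = 0.0233), and WRKY17 was lower by a log2 fold change of -0.88 (edgeR adjusted p = 0.0318). WRKY26 was at 4.77 and 15.3 CPM in the BRL3ox replicates, and its log2 fold change ran from 0.58 to 2.26 over the alternatives. Over the fits that left out 1 library the count ran from 0, without replicate 1 of Col-0, to 16, and without replicate 2 of BRL3ox at 22 °C and either library of pSUC2-BRL3 at 28 °C it was 2.

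**Figure D5:**
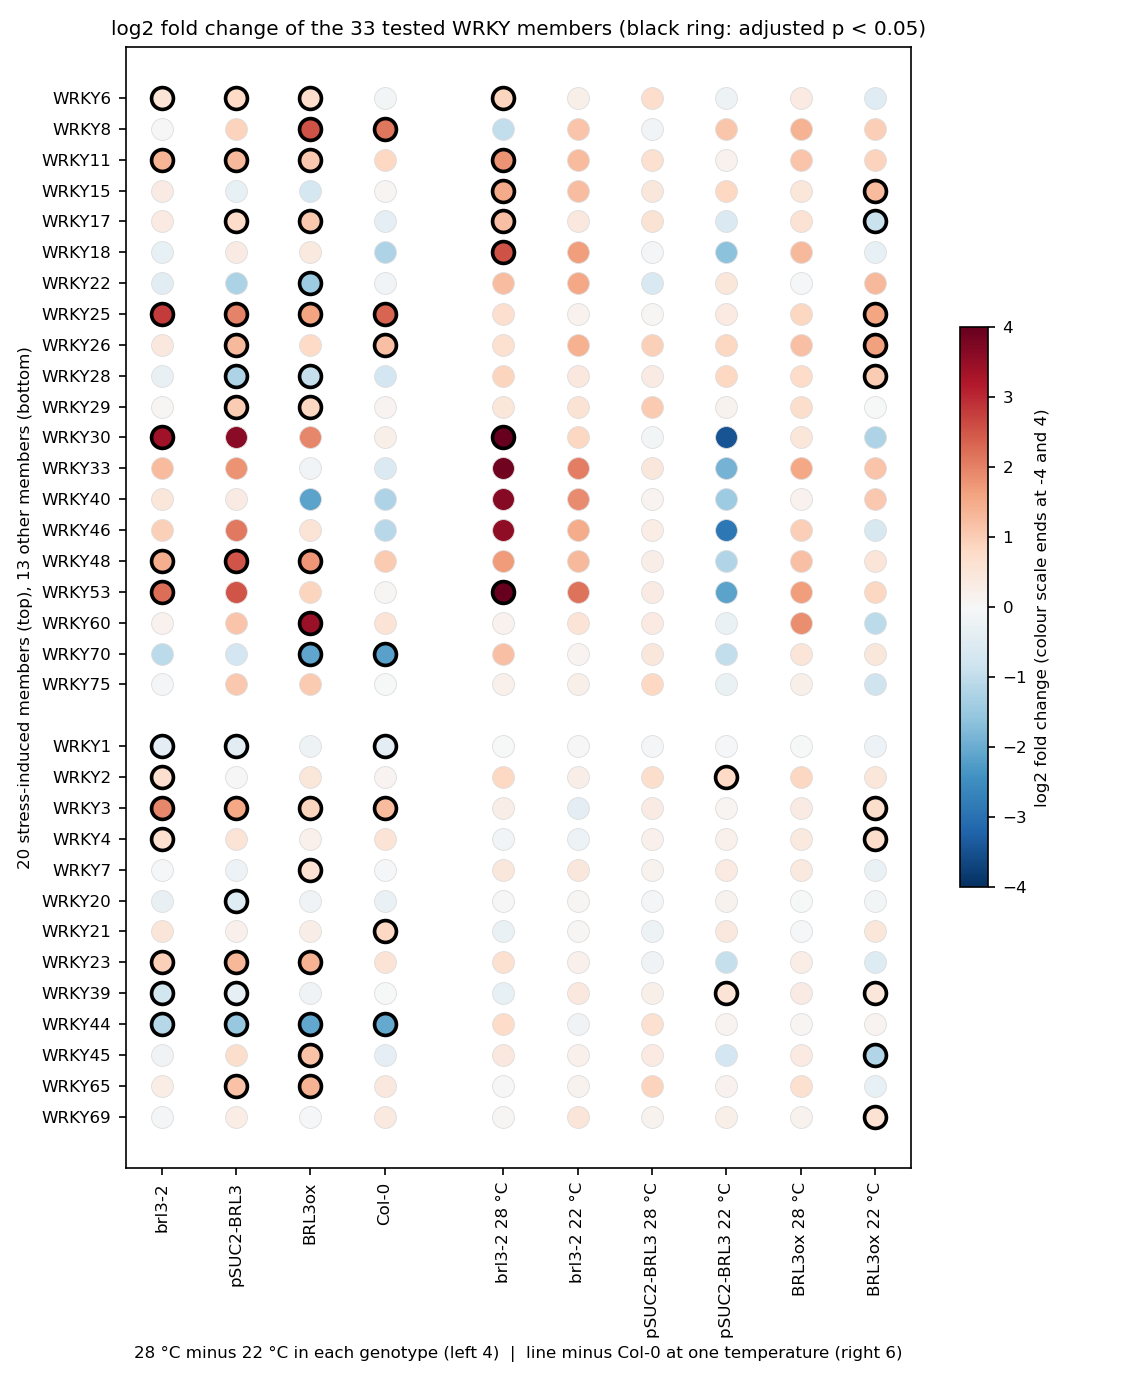
Log2 fold changes of the 33 tested WRKY members (down the page) in 10 comparisons (across), with a ring around those at an adjusted p below 0.05. Ringed values are common in the warmth columns, where 18.3% to 25.8% of all genes tested were called higher and 19.3% to 23.3% lower. Against Col-0 at 28 °C rings appear for 7 members in brl3-2, beside 2.19% of all genes higher and 1.43% lower. Those 7 calls rest on few libraries. In pSUC2-BRL3 and BRL3ox 0 are ringed at 28 °C, beside 0.229% and 0.829% of all genes higher. In BRL3ox at 22 °C 8 are higher and 2 lower, beside 15.6% and 14.7% of all genes.

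The warmth responses of the lines were set against that of Col-0 in the same fit. For brl3-2, 0 members had a higher response and 1 a lower one, where 0.517% of all genes were higher and 0.361% lower. That 1 was WRKY39, at 24.1 and 25.6 CPM in Col-0 at 28 °C and 24.1 and 26.4 CPM at 22 °C, whose response in brl3-2 was lower than in Col-0 by a log2 difference of -0.75 (SE 0.15, edgeR adjusted p = 0.0484). The call was lost in 10 of 12 alternatives, each of the 8 fits without 1 library among them, where the difference ran from -0.84 to -0.66. For pSUC2-BRL3, 0 members were higher and 0 lower by edgeR, where 0.853% of all genes were higher and 1.1% lower. At unadjusted p below 0.05, 4 of the 33 tested were higher and 0 lower, beside 19% of all genes in both directions together. DESeq2 called WRKY6 higher. For BRL3ox, 1 member had a higher response and 0 a lower one, where 1.24% of all genes were higher and 1.34% lower. WRKY60 rose more in BRL3ox than in Col-0, where it was at 5.48 and 5.76 CPM at 28 °C and 3.64 and 4.08 CPM at 22 °C, by a log2 difference of 2.92 (SE 0.68, edgeR adjusted p = 0.0487). That call was lost in 7 of 14 alternatives, among them the fits without either BRL3ox library at 28 °C or any 1 of the Col-0 libraries, where the difference ran from 2.22 to 4.45.

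Among 24 genes known to act with WRKY factors, of which 21 passed the filter, the kinase gene MPK3 and the lipase-like defence gene EDS1 were called higher in brl3-2 than in Col-0 at 28 °C. In all, 4 were higher and 2 lower there, beside 2.19% and 1.43% of all genes. MPK3 averaged 298.6 ± 80.9 CPM in brl3-2 and 51.5 ± 9.25 CPM in Col-0 (SD, n = 2 each), with a log2 fold change of 2.54 (edgeR adjusted p = 0.0297). SARD1, a regulator of salicylic acid synthesis, was higher by 3.40 on 100 counts in brl3-2 against 9 in Col-0 (edgeR adjusted p = 0.00786). MBF1C, a heat-response coactivator, averaged 2.39 ± 0.0300 CPM in brl3-2 and 36.6 ± 8.34 CPM in Col-0 (-3.93, edgeR adjusted p = 0.0022), and the chaperone gene HSP101 was lower by a log2 fold change of -1.99 (edgeR adjusted p = 0.00999). Both genes were also lower than in Col-0 in the other lines at 28 °C. MBF1C was at 3.31 ± 0.609 CPM in pSUC2-BRL3 and 3.23 ± 0.484 CPM in BRL3ox (edgeR adjusted p = 0.00343 and 0.00222), and HSP101 at 4.85 ± 0.756 and 6.14 ± 0.103 CPM in the same lines (edgeR adjusted p = 0.0123 and 0.0169). These comparisons share the Col-0 libraries. At 22 °C EDS1 alone was called, at 40.2 ± 2.46 CPM in brl3-2 and 17.0 ± 0.486 CPM in Col-0 (1.25, edgeR adjusted p = 0.0128). In pSUC2-BRL3 against brl3-2, EDS1 was lower at 28 °C (-1.13, edgeR adjusted p = 0.0133).

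In the average warmth response 4 of those 21 rose and 6 fell, beside 35.9% and 33.5% of all genes. The defence gene FRK1, a target of WRKY22 and WRKY29, was called as higher, at 0.657 and 1.27 CPM in Col-0 at 28 °C against 2 counts in the 2 libraries at 22 °C. GL2, a target of WRKY44 in epidermal cells, fell by 1.73 (SE 0.28, edgeR adjusted p = 0.000178), in the same direction as WRKY44 itself. The salicylic acid marker PR1 fell by 1.63 and the heat factor gene HSFA2 by 1.59 (edgeR adjusted p = 0.00886 and 0.00775). In Col-0 3 rose and 4 fell, beside 21.7% and 23.3% of all genes.

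Of the 32 WRKY genes outside the list, 21 passed the filter, and 10 of them rose and 4 fell in the average warmth response, beside the same 35.9% and 33.5% of all genes. WRKY72 rose by 2.64 (SE 0.23, edgeR adjusted p = 1.29e-06), WRKY71 by 2.55, WRKY56 by 1.95 and WRKY31 by 1.66 on the log2 scale. At 28 °C WRKY52, also a disease resistance gene, was the 1 of them higher in brl3-2, at 25.95 ± 0.257 CPM against 17.6 ± 1.20 CPM in Col-0 (0.56, edgeR adjusted p = 0.0258).

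Counting may blur some of these genes. Another annotated gene overlaps 9 of the members, WRKY29, WRKY33, WRKY40, WRKY41, WRKY53, WRKY4, WRKY69, WRKY1 and WRKY2. The libraries kept strand, but whether the counting used it is not given in the sources used here, so reads of such pairs may have been shared or dropped.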

How the data were processed

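Total hypocotyl RNA was made into stranded mRNA libraries, per the labels' protocols. The table deposited by the authors holds raw counts of reads per gene and library. Per the submitters' processing notes, the tools were FastQC 0.11.2, Trimmomatic 0.38, HISAT2 2.1, featureCounts 1.6.2 and edgeR 3.34.1, with build TAIR10. Not given in the sources used here were the annotation, the read layout and the strand setting of the counting. Groups came from the labels, and 33011 loci of the table are named in the TAIR10.1 reference. The 1 line without a gene name, at most 0.00463% of a library, was left out.

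Counts were fitted with edgeR 4.0.16 (R 4.3.3, limma 3.58.1), with TMM scaling, 1 coefficient per group and 8 residual degrees of freedom. The filter asked for 10 counts in 2 libraries, scaled to depth, and 15 in total. The quasi-likelihood F-test was two-sided, with Benjamini-Hochberg adjustment over 20505 genes. The standard error is the log2 fold change over the root of F. Folds between replicates were taken from log2 CPM with a prior count of 2, which shrinks them at low counts. The procedure was also tested on simulated data. Sequences came from RefSeq TAIR10.1, levels per kilobase from its exons, figures from matplotlib 3.10.9.

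Members, roles and gene lists were chosen with earlier results of these data known, so none is independent evidence. Described in every library were WRKY33, WRKY40, WRKY18, WRKY53, WRKY70, WRKY75, WRKY25, WRKY26, WRKY23 and WRKY44. Otherwise the members named were, per comparison, those called with groups apart and the largest changes (up to 6 each way in Col-0 warmth, 4 in the other warmth and Col-0 comparisons, 3 elsewhere), and up to 4 called genes of each other list. WRKY46, WRKY48 in brl3-2 and lists of the further members called were added after their values were seen. Alternatives were DESeq2 size factors, no low-count filter, DESeq2 1.42.0, the replicate number as a block, and each library left out in turn. Leaving out replicate 2 of BRL3ox at 22 °C together with either library of pSUC2-BRL3 at 28 °C was chosen after seeing the data.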

Additional observations from a re-analysis of the deposited data

Results flagged for a closer look

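WRKY39 is singled out because its warmth response differed between brl3-2 and Col-0 by the test of that difference itself, with -0.75 on the log2 scale (edgeR interaction, adjusted p = 0.0484), where its 2 replicates per group lay at most 1.13-fold apart. That call was fragile and was lost in 10 of 12 alternatives.

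WRKY60 is singled out in the same way, since its warmth response in BRL3ox exceeded that in Col-0 by 2.92 on the log2 scale (edgeR interaction, adjusted p = 0.0487). In BRL3ox it was at 15.6 and 24.97 CPM at 28 °C and at 2.96 and 0.629 CPM at 22 °C, and the last of these is the library that stood apart from the rest. The call was lost in 7 of 14 alternatives. Those were the replicate block and the fits without 1 library of BRL3ox at 28 °C or of Col-0. The fits without replicate 2 of BRL3ox at 22 °C were not among them, and the difference ran from 2.22 to 4.45 over all 14.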

How the results depend on the processing

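No log2 fold change of the 55 tested for members named in a comparison changed sign under any alternative. The 55 had been chosen as called, and in comparisons of 2 groups as having the libraries of the groups apart. Leaving out 1 library could therefore hardly reverse a sign, and the kept signs are no evidence of stability. DESeq2 size factors lost 1 of these calls, no filter on low counts 2, DESeq2 0, the replicate block 5 and either added pair of libraries 8 of the 32 it touched, while leaving out 1 library kept 186 and lost 114 of 300. Calls kept under every alternative run were WRKY25 in the 4 warmth responses, WRKY3 in Col-0, brl3-2 and pSUC2-BRL3, WRKY44 in Col-0 and BRL3ox, WRKY30 and WRKY39 in brl3-2, WRKY48 in pSUC2-BRL3, WRKY60 and WRKY8 in BRL3ox, and WRKY22, WRKY25, WRKY30, WRKY44, WRKY48 and WRKY70 in the mean of the 4 genotypes. Counts of members called moved as follows. DESeq2 called 7 in brl3-2 against Col-0 at 22 °C and 11 at 28 °C, 4 in pSUC2-BRL3 against Col-0 at 22 °C and 2 at 28 °C, 3 in BRL3ox against Col-0 at 28 °C, 7 in pSUC2-BRL3 against brl3-2 at either temperature, and 1 and 5 in the response differences of pSUC2-BRL3 and BRL3ox. DESeq2 size factors gave 1 in pSUC2-BRL3 against Col-0 at 22 °C. Without a filter the count was 1 in BRL3ox against Col-0 at 28 °C, 2 in pSUC2-BRL3 against brl3-2 at 22 °C and 0 in the brl3-2 response difference. The replicate block gave 1 in pSUC2-BRL3 against Col-0 at 22 °C, 0 in pSUC2-BRL3 against brl3-2 at 22 °C and 0 in the response differences of brl3-2 and BRL3ox. Deviations of same-numbered libraries correlated at -0.294 to 0.267 between groups, over 0.1 in 8 of 28 pairs of groups. Such correlations cannot tell whether same-numbered libraries shared a sowing or a harvest. Without both pSUC2-BRL3 replicate 1 at 28 °C and BRL3ox replicate 2 at 22 °C the counts were 2 in BRL3ox against Col-0 at 22 °C, 1 in pSUC2-BRL3 against Col-0 at 28 °C, 7 against brl3-2 at 28 °C and 2 in its response difference, and with replicate 2 of pSUC2-BRL3 left out in place of replicate 1 they were 2, 6, 9 and 4. Leaving out 1 library gave 4 to 6 in Col-0 warmth, 6 to 8 in brl3-2, 5 to 10 in pSUC2-BRL3, 10 to 21 in BRL3ox and 23 to 27 in their mean. It gave 0 to 0 in brl3-2 against Col-0 at 22 °C and 0 to 3 at 28 °C, 0 to 1 in pSUC2-BRL3 against Col-0 at 22 °C and 0 to 0 at 28 °C, 0 to 16 in BRL3ox against Col-0 at 22 °C and 0 to 0 at 28 °C, 0 to 0 in pSUC2-BRL3 against brl3-2 at 22 °C and 0 to 1 at 28 °C, and 0 to 0, 0 to 0 and 0 to 13 in the response differences of brl3-2, pSUC2-BRL3 and BRL3ox. The cause of these moves was not tested.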
